A study of Mus musculus with 18 samples.

Results

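The ratio of polysome-bound to total RNA was compared between 2 sorted populations of cultured mouse myeloid-derived suppressor cells (MDSC), called LY6G and LY6C here as in the library names. Members are the 12 libraries of these 2 populations, of 18 libraries in all, and the 6 bone marrow libraries were not used. They form 6 pairs of a polysomal and a total RNA library, 1 pair per sorted culture, with cultures numbered 2, 3 and 6 in each population. All cells were wild type and of the C57BL/6 strain. Bone marrow was differentiated in culture for 5 days and sorted. LY6G cells were CD11b high, Ly6G high and Ly6C intermediate, and LY6C cells were CD11b high, Ly6G negative and Ly6C high. After sorting, the cells were plated, held overnight and treated with cycloheximide before lysis. They are therefore MDSC made in a dish from normal marrow, not cells taken from a tumour. The labels do not say whether same-numbered cultures of both populations came from the same marrow, so p-values measure the spread between these cultures.

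Granulocytic MDSC carry the Ly6G antigen and monocytic MDSC the Ly6C antigen at high level, and both are known for suppressing T cells. An mRNA that is being translated usually carries several ribosomes and sinks deep into a sucrose gradient with them. Cycloheximide freezes ribosomes on the mRNA, so the polysomal level of a gene divided by its level in total RNA of the same lysate is a measure of how heavily that mRNA is loaded. That ratio is called translational efficiency here. It is given as a log2 value (log2 polysomal minus total), where 0 means that the mRNA had the same level in both RNA pools after scaling. The comparison asks whether this ratio differed between LY6G and LY6C cells, as (LY6G polysomal minus LY6G total) minus (LY6C polysomal minus LY6C total). Each library was scaled by its own total and a TMM factor, a correction for library make-up. A change of the whole pool onto or off polysomes is therefore not seen. Fewer cells of a type within a sort cannot be told apart from less RNA per cell.

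No gene differed in translational efficiency between LY6G and LY6C cells by the test. Of 13911 genes tested with edgeR's quasi-likelihood test, 0 (0%) had an adjusted p under 0.05 in either direction, and the lowest adjusted p was 0.9998. At an unadjusted p under 0.05 there were 113 genes (0.812%), of which 34 (0.244%) were higher and 79 (0.568%) were lower in LY6G. Evenly spread p-values would put a share of 0.05 of the genes there, so this test ran conservative in these data. A block on culture and on number within fraction gave 321 such genes and also called 0. DESeq2 also called 0, with 68 genes at that unadjusted p, and limma voom with sample quality weights called 0, with 310. The signs of the fitted differences were close to even, with 7006 genes (50.4%) positive and 6905 (49.6%) negative and a median log2 difference of 0.0028. Leaving out any 1 culture, or any 1 number in both populations, also gave 0 called genes. With no filter on low counts 8 genes were called, with a lowest adjusted p of 0.00141 by the edgeR test. Most were genes with few counts that belong to the male accessory glands or encode small RNAs. Gm26917, also among the 8, was abundant, with 2036836 counts over the 12 libraries, and did not pass with the filter.

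The intervals show which sizes of difference these data leave room for. Among the 8587 genes with a mean of at least 10 CPM (counts per 1e+06 counts of a library after TMM scaling) in a group, 7514 (87.5%) had a 95% confidence interval that lay wholly between -1 and 1 on the log2 scale, which is less than a doubling or a halving. Their median standard error was 0.233, their median interval reached 0.519 to each side, and 11 of these genes had an estimate past 1 in either direction. Counts were also simulated with 3 cultures a population and 13720 genes. There the same test recovered 41% of genes given a log2 difference of 1 and 100% of those given 2, with 7 false calls. Every simulated gene had the same dispersion, 0.0294, and only genes at a mean of 10 CPM or more were changed. The cultures' own spread of the ratio was left out, so recovery in the real libraries may differ and was not measured. Below 10 CPM the estimates were wide, as the plot of difference against level shows.

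**Figure D1:**
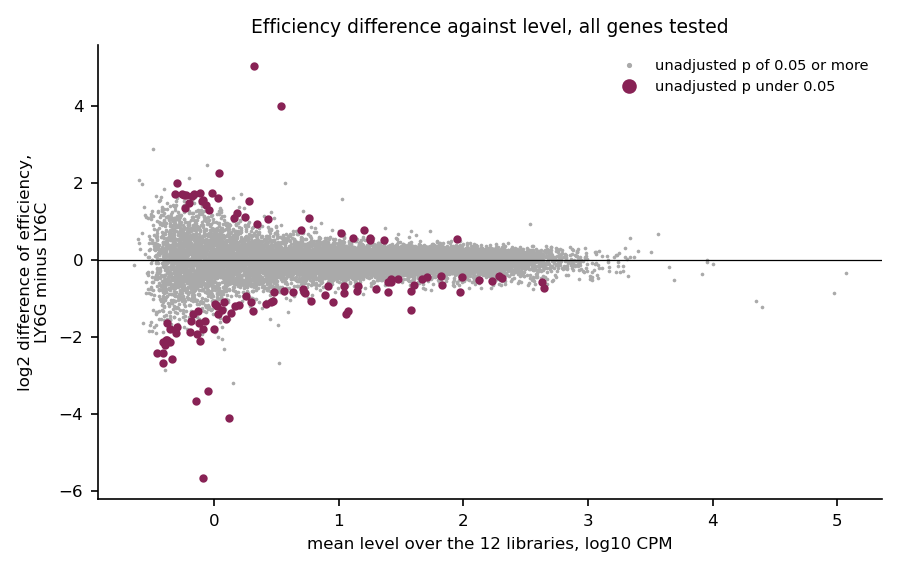
Log2 difference of translational efficiency (LY6G minus LY6C, y axis) against the mean level over the 12 libraries (log10 CPM, x axis), 1 point per gene tested. The 113 genes at an unadjusted p under 0.05 are the large points. None of them passed after adjustment, and the cloud narrows toward high levels.

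The libraries held 8559897 to 21138649 counts. A level of 1 CPM stood for 4.47 to 26.9 counts in LY6C and 15.6 to 26.04 counts in LY6G libraries. Mitochondrial ribosomal RNA took up to 30.6% of the counts of a library. The shallowest library for mRNA was LY6C total RNA number 3, in which 37.6% of counts were on protein-coding genes. As a check of the sort, Ly6g mRNA in total RNA was 7.53, 16.8 and 16.9 CPM in LY6C cultures 2, 3 and 6 and 6.67, 6.98 and 34.1 CPM in LY6G cultures, so the mRNA of the sort antigen overlapped between the populations. Itgam, which encodes CD11b, was at 135 to 219 CPM in LY6C and 181 to 250 CPM in LY6G total RNA. Both neutrophil granule and monocyte genes were abundant, with highest group means of 2667 CPM for Ltf and 1456 CPM for Csf1r. Of markers of other lineages, 10 of 15 B and plasma cell genes and 3 of 11 T and NK cell genes were high enough to be tested. So were 5 of 17 erythroid genes. The highest group means of these lists were 19.3 CPM (Ighm), 40.0 CPM (Il7r) and 13.1 CPM (Car2). Also tested were 12 of 13 basophil, mast cell and eosinophil genes, among them Hdc with a highest group mean of 44.8 CPM. Of 9 megakaryocyte and platelet genes 4 were tested, and Pf4 reached a group mean of 461 CPM in LY6C polysomal RNA. That mean rested on culture 6, with 120, 47.9 and 1216 CPM in cultures 2, 3 and 6.

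The spread of the ratio over genes was widest in the cultures numbered 6. Over the 8587 genes at 10 CPM or more, the standard deviation of log2 polysomal minus total was 0.289, 0.398 and 0.828 in LY6C cultures 2, 3 and 6 and 0.238, 0.326 and 0.648 in LY6G cultures 2, 3 and 6. In culture 6 of LY6C, 1118 genes were more than 1 log2 unit above 0 and 583 more than 1 below. The same counts were 516 and 420 in culture 6 of LY6G. In the other 4 cultures 0 to 53 genes lay past 1 above and 29 to 80 past 1 below. Polysomal and total RNA thus differed most in the culture numbered 6 of either population.

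Across these genes, the same-numbered cultures of the 2 populations had similar polysomal-to-total values. Pearson's r between LY6G and LY6C was 0.75 for number 2, 0.62 for number 3 and 0.74 for number 6. Pairs of cultures with different numbers had r between 0.43 and 0.65, whether they came from the same population or not. These are correlations over genes, which are not independent replicates, and the cultures share the same gene set. For numbers 2 and 6 the best match of each culture was the other population of that number, and for number 3 it was not.

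**Figure D2:**
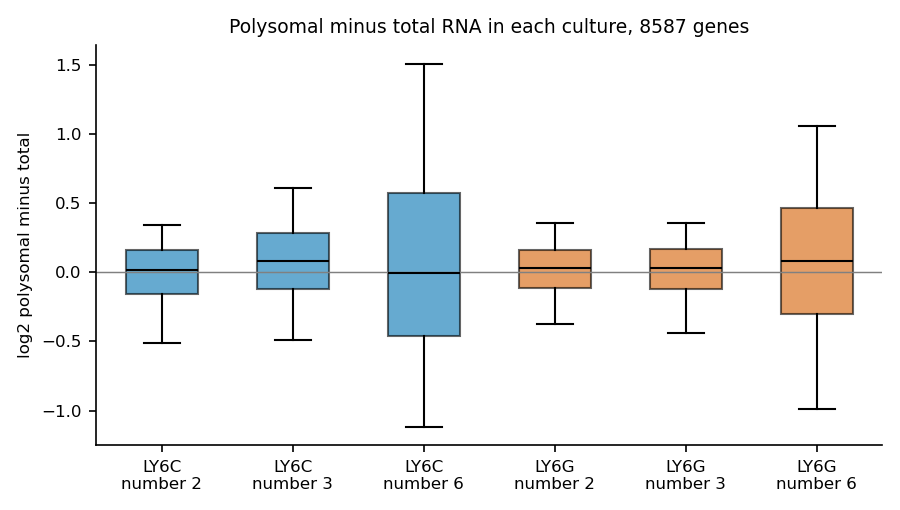
Log2 polysomal minus total RNA over 8587 genes in each of the 6 cultures (x axis). Boxes span the quartiles with the median as a line, and whiskers reach the 5th and 95th percentiles. Both cultures numbered 6 are wider than the other 4, with standard deviations of 0.828 and 0.648.

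The genes described next had the lowest unadjusted p among genes whose 3 LY6G values did not overlap the 3 LY6C values. Over all genes tested, 405 (2.91%) had LY6G values all above LY6C and 393 (2.83%) all below. Since the genes were picked for low p and for no overlap in this comparison, their separation is a description, and none passed the adjusted test. That choice also makes a change of sign unlikely when a culture is left out. Several differences shrank by over 1.5 times without number 6 in both populations, and these values are given beside them.

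Of the genes with the lowest p among those lower in LY6G, 11 are described, and some of them encode secreted factors. Igf1 (ENSMUSG00000020053, chr10:87858265-87937042), which encodes insulin-like growth factor 1, was measured at low levels. Its total level in LY6C was 4.90, 0.894 and 12.8 CPM and its polysomal level 6.27, 1.64 and 20.01 CPM. In LY6G the total level was 14.03, 12.7 and 20.5 CPM and the polysomal level 11.4, 9.52 and 17.3 CPM. Polysomal was above total in every LY6C culture and below it in every LY6G culture. Log2 polysomal minus total was 0.59 ± 0.23 (SD, n = 3) in LY6C and -0.32 ± 0.09 (SD, n = 3) in LY6G, and the fitted difference was -0.85 (95% interval -1.39 to -0.31). LY6C total RNA number 3 held 4 Igf1 counts.

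Inhba (ENSMUSG00000041324, chr13:16011851-16031621) encodes the beta A subunit of activin and was far more abundant. In LY6C its total level was 274, 165 and 735 CPM and its polysomal level 302, 197 and 682 CPM. LY6G cultures had total levels of 419.7, 726 and 667 CPM and polysomal levels of 378, 444 and 323 CPM. The ratio was near 0 on the log2 scale in LY6C (0.14, 0.26 and -0.11) and lower in LY6G (-0.15, -0.71 and -1.05), and the nearest values of the populations almost met. The fitted difference was -0.73 (SE 0.26, unadjusted p = 0.019, edgeR's quasi-likelihood test).

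Mndal (ENSMUSG00000090272, chr1:173849126-173942491), an interferon-inducible gene of the Ifi200 family, had the lowest unadjusted p of the genes named here, 0.00395 by edgeR's quasi-likelihood test. Total levels were 21.4, 10.95 and 79.4 CPM in LY6C and 17.9, 34.7 and 61.8 CPM in LY6G. Polysomal levels were 23.2, 15.7 and 113 CPM in LY6C and 15.9, 25.3 and 38.5 CPM in LY6G. All 3 LY6C cultures had more Mndal in polysomal than in total RNA, and all 3 LY6G cultures had less. The fitted difference was -0.80 (95% interval -1.29 to -0.32). Genes of this family are near copies of each other, so reads could be split between them, and the value is uncertain for that reason.

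Of the other genes lower in LY6G, 4 are described here by their values in each culture. Gpr183, a chemotactic receptor for oxysterols, had log2 polysomal minus total of 0.43, 0.66 and 1.88 in LY6C cultures 2, 3 and 6 and 0.17, -0.36 and -0.81 in LY6G. Dcstamp, which is needed for fusion of macrophage-lineage cells, had 0.37, 0.22 and 1.40 in LY6C and 0.17, -0.21 and -0.47 in LY6G. For both genes the gap between the populations was widest at number 6. There Gpr183 rested on 12 total and 48 polysomal counts in LY6C and on 34 and 22 in LY6G. Kcna3, a voltage-gated potassium channel, had 0.29, 0.64 and 0.23 in LY6C and 0.08, -0.50 and -1.01 in LY6G. Flrt2, a membrane protein of cell adhesion, had 0.32, 0.70 and 0.20 against -0.22, -0.15 and -0.12. The fitted differences of these 4 genes lay between -1.08 (Gpr183) and -0.50 (Flrt2). Dcstamp was at -0.84 with all cultures, -0.48 without LY6C culture 6 and -0.34 without number 6, and Gpr183 at -0.62 without number 6.

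Among the remaining 4 of the 11 genes, Klhl42, an adaptor of a ubiquitin ligase, differed by -0.69, and Tmem41b, a lipid scramblase of the endoplasmic reticulum, by -0.67. Zfand5, a zinc finger protein linked to the proteasome, differed by -0.46, and Ptpn18, a protein tyrosine phosphatase, by -0.50, or -0.28 without number 6. Their unadjusted p lay between 0.0142 and 0.0348, by edgeR's quasi-likelihood test. Zfand5 was the only 1 of the 11 with values below 0 in 2 LY6C cultures (-0.14, -0.06 and 0.02), against -0.36, -0.49 and -0.71 in LY6G.

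The 12 genes with higher ratios in LY6G had fitted differences from 0.40 to 0.68, against -1.08 to -0.46 for the 11 lower genes. Ap2m1 (ENSMUSG00000022841, chr16:20535478-20544909) encodes the medium subunit of the AP-2 adaptor that brings cargo into clathrin-coated pits. Its total level was 101, 90.1 and 66.2 CPM in LY6C and 96.7, 94.6 and 87.0 CPM in LY6G. Its polysomal level was 86.7, 76.8 and 44.4 CPM in LY6C and 100.3, 97.6 and 124 CPM in LY6G. Polysomal Ap2m1 was below total in every LY6C culture and above it in every LY6G culture. The fitted log2 difference was 0.54 (SE 0.20, 95% interval 0.09 to 0.99, unadjusted p = 0.0242 by edgeR's quasi-likelihood test), and it was 0.27 without number 6.

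Coa3 (ENSMUSG00000017188, chr11:101277968-101279114), an assembly factor of cytochrome c oxidase, had total levels of 15.0, 30.6 and 14.7 CPM in LY6C and 16.8, 18.4 and 18.6 CPM in LY6G. Its polysomal levels were 11.7, 19.3 and 11.9 CPM in LY6C and 18.9, 19.2 and 18.7 CPM in LY6G. LY6G values of log2 polysomal minus total were 0.08 ± 0.08 (SD, n = 3) against -0.44 ± 0.20 (SD, n = 3) in LY6C. The gap was smallest at number 6, where it was 0.30, against 0.52 and 0.73 at numbers 2 and 3.

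Qsox2, a sulfhydryl oxidase of the secretory pathway, had the largest difference of these 12, 0.68, with values of -0.09, -0.04 and -0.84 in LY6C and 0.35, 0.28 and 0.54 in LY6G. Taf6, a subunit of the general transcription factor TFIID, differed by 0.57, and Tmem120a, a membrane protein of the nuclear envelope, by 0.58. Lima1, which bundles actin, differed by 0.50, Wrap73, a centrosomal protein, by 0.49 and Vps37b, a subunit of the ESCRT-I sorting complex, by 0.45. Atm, the kinase that answers DNA double-strand breaks, had values of 0.04, -0.19 and -0.42 in LY6C and 0.06, 0.34 and 0.32 in LY6G. Its LY6G and LY6C values almost met at number 2. Clptm1l, a membrane protein, Ift57, a subunit of the ciliary transport complex, and Asprv1, a retroviral-like protease, differed by 0.44, 0.40 and 0.51. Without number 6 the difference was 0.39 for Qsox2, 0.34 for Taf6, 0.25 for Atm and 0.22 for Vps37b, and without LY6C culture 6 it was 0.27 for Clptm1l. Unadjusted p of the 12 genes lay between 0.0242 and 0.0612 by edgeR's quasi-likelihood test.

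**Figure D3:**
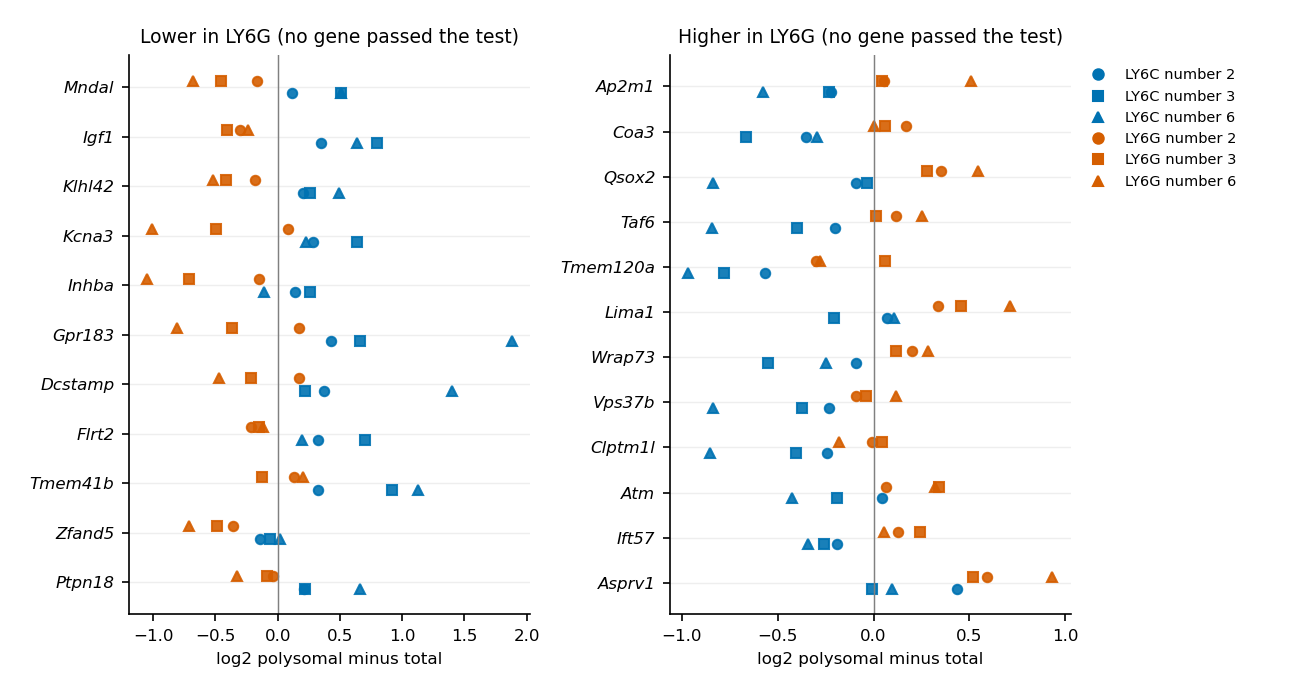
Log2 polysomal minus total RNA (x axis) in each of the 6 cultures for 11 genes lower (left) and 12 genes higher (right) in LY6G, chosen for a low unadjusted p among genes without overlap. Each point is 1 culture, and no gene passed the adjusted test. The separation of colours follows from how the genes were chosen, and the culture numbered 6 (triangles) often lies farthest out.

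Gene groups with known translational control were followed next, as counts and medians beside the same over all genes (7006 of 13911 positive, median 0.0028). The gene lists hold 852 genes in 33 lists. No list held a called gene. Members of a list share length, abundance and control, so they do not count as independent observations.

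Messenger RNAs of the translation machinery start with a 5′ terminal oligopyrimidine (TOP) tract, through which mTOR controls their entry into polysomes. Of 82 cytosolic ribosomal protein genes, 76 had a negative and 6 a positive difference, with a median of -0.32. List medians of log2 polysomal minus total were -0.28, 0.10 and 0.70 in LY6C cultures 2, 3 and 6 and -0.01, -0.66 and 0.15 in LY6G. At number 2 the LY6G median lay above LY6C, and at numbers 3 and 6 below it. The 23 other TOP mRNAs had 21 negative differences and a median of -0.23, which was -0.04 without LY6C culture 6.

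Rpsa, a protein of the small ribosomal subunit, had its widest gap between the populations at number 3. Its total level was 351, 390.0 and 335 CPM in LY6C and 412, 674 and 279 CPM in LY6G. Its polysomal level was 280.3, 463 and 248 CPM in LY6C and 325, 299 and 187 CPM in LY6G. LY6G minus LY6C was -0.02 and -0.14 at numbers 2 and 6 and -1.42 at number 3. At numbers 2, 3 and 6 it was 0.36, -1.36 and -0.78 for Rps7 and 0.15, -0.52 and -0.65 for Rpl10a. Both of these ribosomal protein genes thus parted at number 6 too. Tpt1 (translationally controlled tumour protein) had values of -0.84, 0.25 and 0.53 in LY6C and -0.24, -1.13 and -0.36 in LY6G, a fitted difference of -0.56 (95% interval -1.38 to 0.26). Without number 3 in both populations Rpsa was at -0.11 and Tpt1 at -0.17. Eef1a1, the elongation factor that carries aminoacyl-tRNA, had -0.25, 0.52 and 0.48 in LY6C and -0.28, -0.34 and 0.46 in LY6G. The ribosomal protein median was -0.08 without LY6C culture 6, -0.09 without LY6G culture 3 and -0.12 without number 3 in both. Ribosomal protein genes have many near-identical processed pseudogenes, so their counts are uncertain.

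Initiation factors, which are mostly not TOP mRNAs, were balanced, with 17 positive and 18 negative of 35 and a median of -0.01. Their intervals were narrow: 34 of the 35 lay wholly within 1 log2 unit of 0. Eif3a, the largest eIF3 subunit, had a difference of -0.29, and Eif4g2 and Eif4g3, relatives of the scaffold eIF4G, had 0.33 and 0.27. Eif4g2 was at 0.04 without LY6C culture 6. The 22 aminoacyl-tRNA synthetase genes tested were split 11 to 11 with a median of -0.00, and 21 of them had intervals within 1. Gars, the glycyl-tRNA synthetase, was at 0.22 (95% interval -0.22 to 0.66).

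Under stress, phosphorylation of eIF2 lowers general initiation while mRNAs with upstream open reading frames, such as Atf4 and Atf5, gain ribosomes. Of 25 genes of this stress response 15 were positive and 10 negative, with a median of 0.06. Atf4 had less RNA on polysomes than in total RNA in all 6 cultures, with log2 values of -0.56, -0.29 and -1.21 in LY6C and -0.45, -0.25 and -0.88 in LY6G. Atf5 had -0.58, -0.41 and -1.30 in LY6C and -0.25, -0.18 and -0.78 in LY6G. The fitted differences were 0.15 (95% interval -0.45 to 0.76) and 0.36 (-0.23 to 0.95). For both transcription factors the order of the numbers was the same in LY6G as in LY6C, with 6 lowest and 3 highest. Slc7a11, the cystine transporter that ATF4 induces, was the only member without overlap, at -0.40. Slc35a4, known for a strong upstream frame, was at 0.30. Without LY6C culture 6 Atf5 was at 0.09 and Slc35a4 at 0.11.

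Ferritin mRNAs carry an iron-responsive element in the 5′ untranslated region. Iron regulatory proteins bind this hairpin when iron is low and block initiation, and ferroportin (Slc40a1) has the same kind of element. The 30 bases around the element are shown for the 3 mRNAs because their loop is the site through which iron controls loading. The letters come from the GENCODE M21 transcripts and lie in the first exon, within the 5′ untranslated region (GRCm38). Capitals mark the apical loop CAGTGN. Ftl1 and Slc40a1 were added after their values were seen.
Fth1, chr19:9982731-9982760, plus strand: tttcctgcttcaaCAGTGCttgaacggaac
Ftl1, chr7:45459779-45459808, minus strand: tgtcttgcttcaaCAGTGTttgaacggaac
Slc40a1, chr1:45925465-45925494, minus strand: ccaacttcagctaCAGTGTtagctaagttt
The loop letters alone are common. Searched on the sense strand, CAGTGN stood in the first 200 bases of 1996 of 8623 leaders of at least that length (23.15%), so the letters by themselves name no element.

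Fth1, the ferritin heavy chain, had total levels of 1544, 297 and 3091 CPM in LY6C and 2809, 2625 and 2255.5 CPM in LY6G. Its polysomal levels were 583, 239 and 627 CPM in LY6C and 1600.5, 697 and 878 CPM in LY6G. Polysomal Fth1 was lower than total in all 6 cultures, with log2 values of -1.40, -0.31 and -2.30 in LY6C and -0.81, -1.91 and -1.36 in LY6G. Between populations the difference was -0.02 (SE 0.48, 95% interval -1.09 to 1.06), and LY6G was above LY6C at numbers 2 and 6 and below at number 3. Its sign turned positive with no replicate block, at 0.49. Ftl1, the light chain, was also lower on polysomes in all 6 cultures, with -1.22, -0.61 and -2.02 in LY6C and -1.29, -1.71 and -1.29 in LY6G. Slc40a1 had -0.87, -0.66 and -2.33 in LY6C and -0.84, -0.54 and -1.46 in LY6G. All 3 mRNAs with the element were under-represented on polysomes in both populations, and their 3 intervals for the difference all held 0. The iron list as a whole was balanced, with 6 positive and 9 negative of 15 and a median of -0.05. Ferritin pseudogenes can take or give reads here too.

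Polyamine and selenoprotein synthesis depend on recoding, by a frameshift in the antizymes and by reading a stop codon as selenocysteine. The polyamine list was split 6 to 6 with a median of -0.01, and the selenoproteins 8 to 8 with a median of 0.00. Odc1, which makes putrescine, was lower on polysomes in all 6 cultures (-0.09, -0.24 and -0.66 in LY6C, -0.28, -0.27 and -1.12 in LY6G). Oaz2, an antizyme, differed by 0.19. Selenok, a small selenoprotein of the endoplasmic reticulum, had 0.09, 0.69 and 2.16 in LY6C and -0.12, -0.20 and 0.83 in LY6G, a difference of -0.79 (95% interval -1.86 to 0.28), or -0.21 without LY6C culture 6.

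Cytokine and chemokine mRNAs are unstable and are held back or released by AU-rich element binding proteins. Of 30 inflammatory cytokine and chemokine genes tested, 27 were negative and 3 positive, with a median of -0.32 and 0 at an unadjusted p under 0.05. Cxcl2, a neutrophil-attracting chemokine, had total levels of 336, 128 and 475 CPM in LY6C and 501, 569 and 526 CPM in LY6G. Polysomal Cxcl2 was 227, 102 and 536 CPM in LY6C and 358, 305 and 291 CPM in LY6G. LY6C exceeded LY6G in the ratio at numbers 3 and 6 but not at number 2, where the log2 gap was 0.08. The fitted difference was -0.51 (95% interval -1.06 to 0.04), or -0.24 without number 6. Ccl4 and Cxcl10 were at -0.62 and -0.74. Ccl4 was at -0.12 without number 6, and Cxcl10 was at -0.12 without LY6C culture 6. The list median was -0.17 without LY6C culture 6, and it was negative in every setting tried.

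Immediate early genes and mRNA decay regulators, which share this rapid turnover, had 24 negative of 28 and a median of -0.16. Dusp1, a phosphatase of MAP kinases, had -0.24, 0.32 and 0.58 in LY6C and -0.30, -0.18 and -0.17 in LY6G. Zfp36, the decay factor tristetraprolin, had -0.54, 0.21 and 0.46 against -0.43, -0.42 and -0.32. In both genes number 2 was alike in the populations and numbers 3 and 6 were lower in LY6G. Egr3, a transcription factor, was at -0.59, or -0.14 without LY6G culture 6. Without LY6C culture 6 Dusp1 was at -0.26 and Zfp36 at -0.23. Interferon response genes were negative in 21 of 26 with a median of -0.15, Ifih1 and Ifit2 among them at -0.24 and -0.35. That median was -0.02 without LY6C culture 6, and Ifit2 was at -0.08 without number 6.

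Genes of suppressive function did not lean to either side. Of 26 tested, 12 were positive and 14 negative, with a median of -0.04 and 23 intervals within 1. Arg1, the enzyme that depletes arginine around T cells, had total levels of 24.9, 10.3 and 1165 CPM in LY6C and 62.1, 42.7 and 805 CPM in LY6G. Its polysomal levels were 31.3, 10.8 and 2554 CPM in LY6C and 68.4, 42.5 and 1933 CPM in LY6G. The difference of the ratio was -0.10 (SE 0.39, 95% interval -0.97 to 0.78). Nos2, which makes nitric oxide from arginine, had total levels of 2.56, 4.25 and 509.9 CPM in LY6C and 4.53, 5.70 and 103 CPM in LY6G. Polysomal Nos2 was 3.08, 3.79 and 1434 CPM in LY6C and 4.51, 6.41 and 150.4 CPM in LY6G. Both genes were at far higher levels at number 6 than at numbers 2 and 3 in both populations, and the ratio of Arg1 was also above 1 log2 unit only there. For Nos2 the difference was -0.50 (-1.35 to 0.35), and it was 0.15 without LY6C culture 6. Stat6, a transcription factor of the interleukin 4 response, was at 0.28.

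Markers of the sorted lineages were also balanced. The neutrophil primary granule list had 4 positive of 7 and a median of 0.00, and the later granule list 13 positive of 29 and a median of -0.05. Mpo, the granule myeloperoxidase, had ratios of 0.27, 0.33 and 0.10 in LY6C and 0.34, 0.36 and 1.63 in LY6G, so that the populations differed by little at numbers 2 and 3. Its difference was 0.49 with all cultures and 0.05 without number 6. Mmp9, gelatinase B, had -0.11, 0.18 and -1.87 against -0.05, -0.01 and 1.14, and its difference of 0.93 (95% interval -0.23 to 2.09) rested on number 6. Without number 6 it was -0.06. Stfa2l1 and Lcn2, later granule and neutrophil genes, were at -0.74 and -0.49, and without LY6C culture 6 at -0.08 and 0.03. Monocyte and macrophage genes were positive in 11 of 30 with a median of -0.03. Ly6c2 had 0.29, 0.54 and 2.84 in LY6C and 0.32, 0.25 and 1.38 in LY6G, and its total level was 312, 380.2 and 332 CPM in LY6C and 230.3, 283 and 191 CPM in LY6G. The Ly6c2 difference was -0.54 with all cultures and 0.22 without LY6C culture 6. The Ly6c1 and Ly6c2 genes are near copies of each other. Genes of antigen presentation were negative in 11 of 13 with a median of -0.15, which turned to 0.07 without LY6C culture 6. The costimulator Cd86 had 0.36, 0.52 and 0.80 in LY6C and 0.23, 0.03 and 0.16 in LY6G (-0.41, 95% interval -0.84 to 0.01).

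Metabolic and growth lists leaned negative with all cultures. Nuclear genes of oxidative phosphorylation were negative in 63 of 72 with a median of -0.26, glycolysis and hypoxia genes in 24 of 26 with -0.22, and replication-dependent histone genes in 44 of 45 with -0.30. Without LY6C culture 6 these medians were 0.17, 0.05 and 0.05, in a fit that kept LY6G culture 6. The list medians of log2 polysomal minus total for oxidative phosphorylation were 0.10, 0.36 and 1.56 in LY6C and 0.23, 0.13 and 0.70 in LY6G. For the histones they were 0.31, 0.65 and 2.14 in LY6C and 0.40, 0.22 and 1.26 in LY6G. In both lists the 2 cultures numbered 6 were highest. Ndufab1, the acyl carrier protein of complex I, was the only oxidative phosphorylation gene at an unadjusted p under 0.05, with 17.1, 19.2 and 12.1 CPM in LY6C total RNA and 17.7, 29.3 and 35.7 CPM in LY6C polysomal RNA. In LY6G it had 18.2, 20.5 and 16.2 CPM in total and 16.5, 18.3 and 16.8 CPM in polysomal RNA. Its difference was -0.77 with all cultures and -0.39 without LY6C culture 6. Lists of lysosome (median -0.04), proteasome (-0.08), endoplasmic reticulum chaperone (-0.02), cytosolic chaperone (0.01), cholesterol (-0.06) and cell cycle genes (-0.11) lay nearer to 0.

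**Figure D4:**
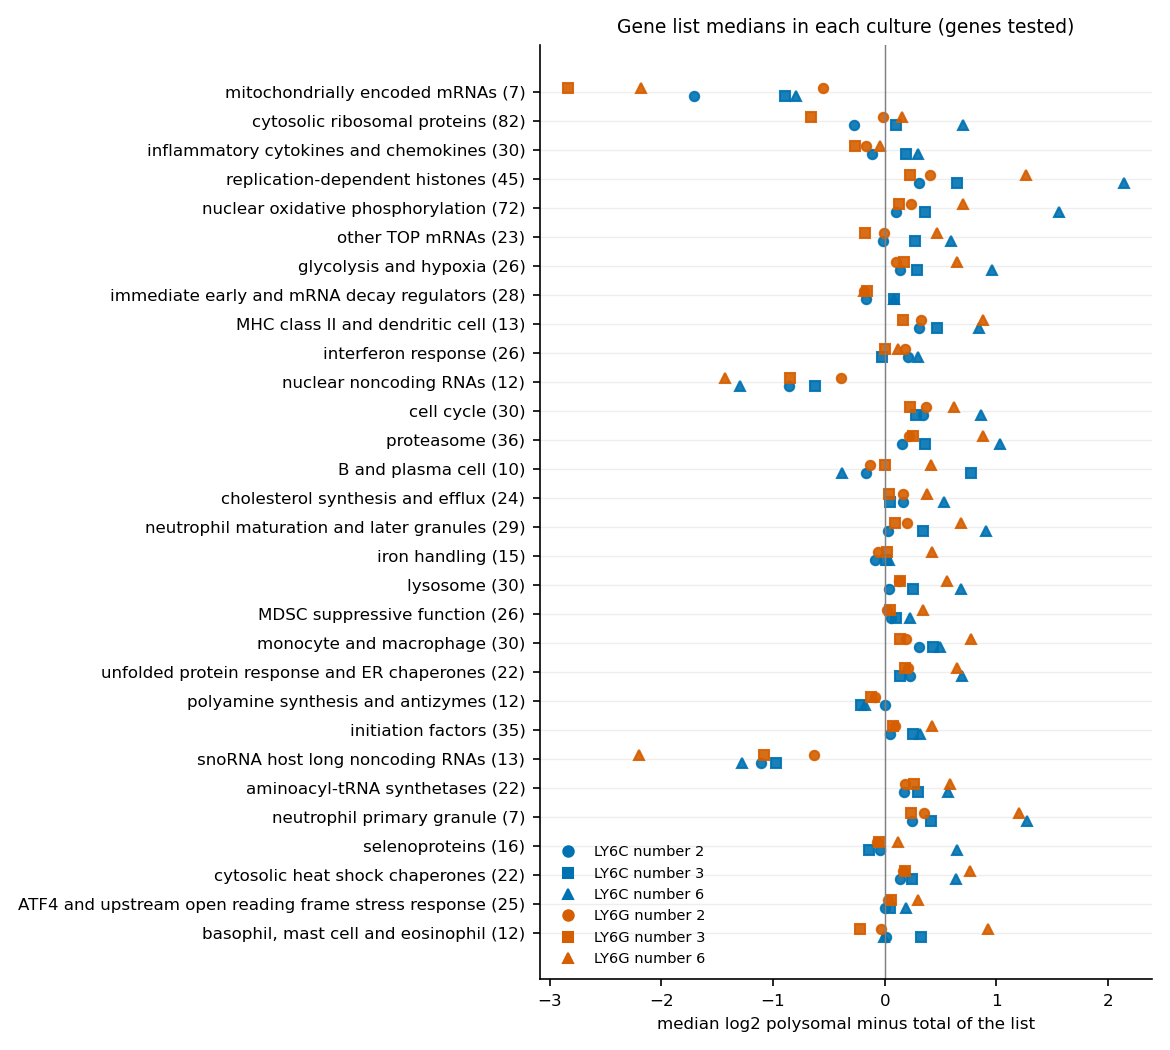
Median log2 polysomal minus total RNA (x axis) of each gene list with at least 7 genes tested (y axis, number tested in brackets) in each culture. Histone and oxidative phosphorylation genes reach 2.14 and 1.56 in LY6C culture 6, and nuclear and mitochondrial RNAs lie below 0 in all 6 cultures.

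RNAs outside the cytosolic translation pool served as a check of the fractions. Malat1, a long noncoding RNA kept in the nucleus, was at 5094, 3295 and 8170.5 CPM in LY6C total RNA and 2297, 2131 and 4031 CPM in LY6C polysomal RNA. LY6G total RNA held 7967, 4774 and 12207 CPM of Malat1, and polysomal RNA 3706, 2063 and 2890.0 CPM. Malat1 and Neat1 were below 0 in all 6 cultures, with log2 polysomal minus total between -2.08 and -0.63. Tug1, another member of the nuclear noncoding list, had -0.45, -0.13 and 0.73 in LY6C and -0.32, -0.28 and -0.68 in LY6G, so it was above 0 in LY6C culture 6. Its annotation is an antisense gene, whose reads cannot be told apart from those of its partner without strand. None of the 3 passed the test of the difference (-0.53 for Malat1, -0.21 for Neat1 and -0.47 for Tug1). Malat1 was at -0.22 without LY6G culture 6, and Tug1 was at 0.0025 without number 6. Hosts of small nucleolar RNAs are a separate list and are not taken here as RNAs outside that pool. Their list median was below 0 in every culture, from -2.20 to -0.63. Not every member was, since Snhg17 was at 0.26 in LY6C culture 2.

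Mitochondrial mRNAs are translated on mitochondrial ribosomes inside the organelle. All 7 of the mitochondrially encoded mRNAs that were tested, of 13, had wide intervals, and 6 were negative, with a median difference of -0.36. mt-Nd6, a complex I subunit encoded on the strand opposite to the other mitochondrial mRNAs, was the 1 at an unadjusted p under 0.05. It had total levels of 2.12, 24.8 and 35.4 CPM in LY6C and 4.80, 25.9 and 22.7 CPM in LY6G. Polysomal mt-Nd6 was 1.87, 7.07 and 10.8 CPM in LY6C and 1.59, 3.00 and 2.97 CPM in LY6G. LY6G minus LY6C was -1.36, -1.27 and -1.19 at numbers 2, 3 and 6, and the fitted difference was -1.32 (SE 0.49, unadjusted p = 0.0231, edgeR's quasi-likelihood test). The other subunits did not repeat this: mt-Nd5 was at -0.30 and mt-Cytb at -0.50, and both turned positive in limma voom, at 0.11 and 0.02. The share of counts on mitochondrial ribosomal RNA ran from 1.66% to 30.6% in LY6C and 3.22% to 18.8% in LY6G total RNA, and its part in these values was not tested. No source used here states whether reads were counted by strand, so reads of mt-Nd6 and of transcripts opposite to it cannot be told apart.

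Coding length was the transcript feature that followed the difference most closely. Over 8341 protein-coding genes at 10 CPM or more, Spearman's rho between coding length and the log2 difference was 0.34, as a description across genes. Genes were split by coding length into 5 bins of 1665 to 1676 genes. In the bin with the shortest coding sequence (75 to 765 bases) the median difference was -0.11, and in the longest bin (2580 to 26397 bases) it was 0.10. The cultures did not share it: rho with log2 polysomal minus total was 0.13, -0.01 and -0.33 in LY6C cultures 2, 3 and 6 and -0.05, 0.23 and -0.10 in LY6G cultures 2, 3 and 6. Without LY6C culture 6 rho with the difference was -0.12, without LY6G culture 3 it was 0.20, and without number 6 in both populations it was 0.03. Median log2 polysomal minus total in LY6C culture 6 ran from 0.57 in the shortest bin to -0.24 in the longest. GC content of the transcript had a rho of 0.14 to 0.30 with the ratio in all 6 cultures, and -0.01 with the difference.

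**Figure D5:**
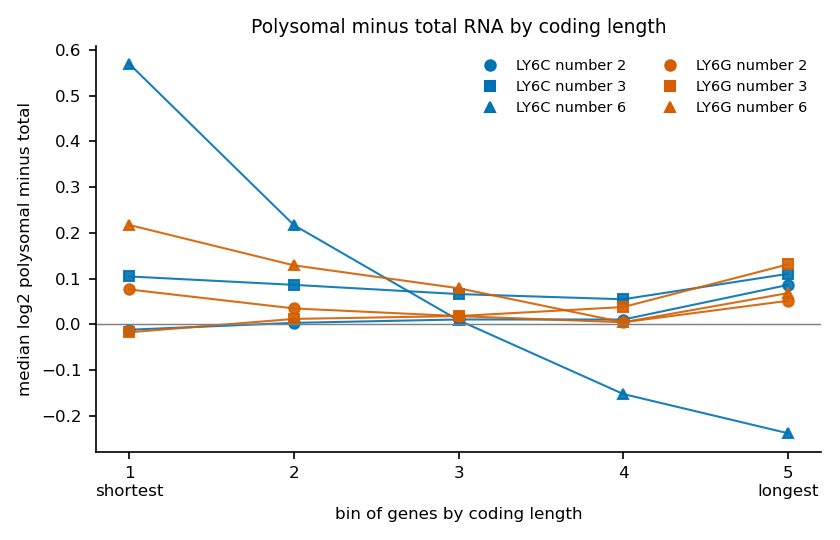
Median log2 polysomal minus total RNA (y axis) in 5 bins of 8341 protein-coding genes ordered by coding length (x axis), 1 line per culture. LY6C culture 6 runs from 0.57 to -0.24, and the other 5 cultures stay between -0.02 and 0.22.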

How the data were processed

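Libraries were ribosome-depleted, stranded total RNA libraries of total and gradient-purified polysomal RNA. The submitters' processing notes name FastQC, STAR 2.5.2a, DESeq and DESeq2 and the build GRCm38 (mm10). The counting tool, its annotation and its strand setting are not given in the sources used here. The authors deposited raw counts per gene, whole numbers without normalization. Of 54838 gene identifiers, 54809 matched GENCODE M21, which gave names, coordinates and lengths.

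Counts were tested with edgeR 4.0.16 (R 4.3.3; TMM, filterByExpr with minimum count 10, robust quasi-likelihood fit), with the culture as a block, fraction, and fraction by population. P-values were adjusted by Benjamini-Hochberg over all genes tested and called under 0.05. Standard errors and 95% intervals come from the quasi-likelihood F statistic. CPM use TMM-scaled library sizes, and per-culture ratios use log2 CPM with a prior count of 2. The fit was tested on simulated data. Alternatives were DESeq2 1.42.0, limma 3.58.1 voom, other normalizations, filters, thinning, blocks and left-out cultures.

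Polysomal and total RNA are paired by population and number in the library names. Their deviations from group means correlated at 0.62 to 0.87, and those of same-numbered LY6G and LY6C libraries at 0.26 to 0.71. Genes were named by the rule of 12 in each direction with the lowest unadjusted p among genes at 10 CPM or more without overlap, up to 3 members of each list with the lowest p, and a set of followed genes. Ftl1 and Slc40a1 were added after their values were seen. The male accessory gland genes, Rn7s1, Bc1 and Gm26917 were also chosen after their values were seen. Some items that this rule names are not reported here. The members and lists were chosen with earlier results of these data known.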

Additional observations from a re-analysis of the deposited data

How the results depend on the processing

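The number of called genes was 0 in 20 of 21 alternatives and 8 with no filter on low counts. Of those 8 genes, 7 were also among the genes tested with the filter, where they did not pass. The 8 were the male accessory gland genes Svs4, Svs5, Pate4, Sbp and Spink1, the small RNA genes Rn7s1 and Bc1, and Gm26917. Unlike the others, Gm26917 was abundant, with counts in all 12 libraries and up to 1039023 in 1 of them. With no filter its log2 difference was -1.19 (adjusted p = 0.0114, edgeR's quasi-likelihood test). The lowest adjusted p in the other alternatives was 0.2426, in edgeR without number 6 in both populations. Fits with no replicate block called 0 genes, with 12 (12 libraries) and 7 (18 libraries) at an unadjusted p under 0.05. Pairing the populations by number as well (a replicate block on culture and on number within fraction) called 0, with 321. The culture block alone had 113.

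Signs turned for genes near 0 and for some with larger differences, among them Mmp9, Ly6c2, Ly6c1, Nos2, mt-Cytb, Lcn2, Tug1 and Spp1. Ly6c1 was measured at a very low level, with a highest group mean of 1.65 CPM. Its total RNA counts were 0, 1 and 28 in LY6C and 0, 1 and 10 in LY6G cultures 2, 3 and 6. With no replicate block in 12 libraries the log2 difference was 0.055 for Arg1, 0.49 for Fth1, 0.14 for Ftl1 and -0.015 for Slc40a1, and in 18 libraries 0.45 for Fth1, 0.10 for Ftl1 and -0.045 for Slc40a1. With no filter Fth1 was at 0.0054. In limma voom Itgam was at -0.029, mt-Cytb at 0.023 and mt-Nd5 at 0.11. Leaving out cultures or numbers, differences ran from -0.052 to 0.55 (Adgre1), -0.50 to 0.23 (Arg1), -0.11 to 0.33 (Atf4), -0.50 to 0.74 (Fth1), -0.58 to 0.30 (Ftl1), -0.24 to 0.79 (Itgam), -0.96 to 0.034 (Lcn2), -2.89 to 0.43 (Ly6c1), -1.04 to 0.22 (Ly6c2), -0.028 to 0.56 (Ly6g), -0.062 to 1.498 (Mmp9), -0.74 to 0.15 (Nos2), -0.40 to 0.053 (Odc1), -0.19 to 0.50 (Slc40a1), -0.057 to 0.65 (Snhg1), -0.87 to 0.061 (Spp1), -1.50 to 0.11 (mt-Cytb), -0.73 to 0.0025 (Tug1) and -0.86 to 0.29 (mt-Nd5). The cause was not tested. The Spearman coefficient of coding length with the difference moved to 0.16 in limma voom and 0.20 without LY6G culture 3. Depth limits genes below 10 CPM: over all genes tested, 61.2% had an interval within 1 log2 unit of 0.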

Other observations

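Genes of the male accessory glands, chosen after their values were seen, had counts in sorted marrow-derived cells. Over Svs1, Svs2, Svs3a, Svs3b, Svs4, Svs5, Svs6 and Pate4, which encode secreted proteins of the seminal vesicle, LY6C polysomal RNA number 3 held 261 counts and LY6G total RNA number 2 held 322. The partner libraries of these cultures, LY6C total number 3 and LY6G polysomal number 2, held 21 and 44 counts, and the other 8 libraries 0 to 34 each. Svs5 alone gave 64 and 128 counts in the first pair of libraries. The high libraries lie on opposite sides of the ratio in the 2 populations, and Svs4 and Svs5 had log2 differences of -5.66 and -4.10 with no filter on low counts. Rn7s1 and Bc1, which encode small cytoplasmic RNAs, differed by 4.02 and 5.03 in that fit, on 311 and 263 counts over the 12 libraries.

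In limma voom the quality weights were 0.318 to 0.416 for the 4 libraries numbered 6 and 1.24 to 2.29 for the other 8. Small nuclear RNAs were depleted from polysomal RNA in all 6 cultures, with medians of -1.08, -1.67 and -1.76 in LY6C and -0.63, -2.53 and -1.06 in LY6G over 38 genes tested. Of the 38, 29 had positive differences, against 50.4% of all genes tested. At number 3 the LY6G median was nevertheless below LY6C. The estimates were wide, with a median SE of 0.725 and 0 of the 38 intervals within 1 log2 unit of 0. No gene of these classes was called: 314 long intergenic noncoding RNAs had a median difference of -0.04 and 236 antisense genes -0.04, with medians below 0 in every culture.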
